A study of Mus musculus with 18 samples.

Results

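The clustered protocadherin array of mouse chromosome 18, taken here as the 930 kb from 37.08 to 38.01 Mb in build NCBIM37, held 171 of the 225177 histone peaks deposited for the series, 89 in the GFP lists and 82 in the Cre lists. A peak belonged to the array when it overlapped this interval. The interval was set by position, so that the number, height, width and overlap of the peaks were free to vary. No gene position of build NCBIM37 was used here, and no peak was assigned to a single gene. The labelled cell type could for the same reason not be checked against marker genes.

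Clustered protocadherins are cell adhesion proteins of the cadherin superfamily, best known from neurons, where each cell uses its own combination of them and thereby tells its own processes from those of its neighbours. The alpha and gamma genes each consist of a variable exon with a promoter of its own, spliced to constant exons shared by the whole cluster, while each beta gene has its own complete coding exon. The array thus strings many promoters of the same kind along a single stretch of chromosome. RefSeq (assembly GRCm38.p6, used for names and order only) listed 58 protocadherin genes there, 14 alpha, 22 beta and 22 gamma genes, of which 1 gamma gene is a pseudogene. In order of rising coordinate the alpha genes come first, with Pcdhac1 and Pcdhac2 last among them, then the beta genes, and then the gamma genes, with Pcdhgc3, Pcdhgc4 and Pcdhgc5 at the end. The c-type genes are expressed more evenly among neurons than the others. Between the beta and gamma genes lie Slc25a2, which encodes a mitochondrial carrier, and Taf7, a subunit of the general transcription factor TFIID. Diaph1, an actin-nucleating formin, follows the last gamma gene.

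The cells were mouse embryonic fibroblasts (MEFs, primary connective tissue cells) of a mixed B6;129 background with a conditional knockout allele of the tumour suppressor gene Rb, which all of them carried. They were infected with Adeno-GFP, an adenovirus that leaves the allele intact, or Adeno-Cre, which delivers the recombinase that deletes it, received no reprogramming factors ("no 4F"), and were expanded for at most 3 passages. Antibodies against H3K4me3 (active promoters), acetylated histone H3 (H3Ac, active promoters and enhancers), H3K27me3 (silencing by Polycomb complexes) and H3K9me3 (heterochromatin) were used for immunoprecipitation and sequencing, with 1 library per mark and condition. All 8 libraries are labelled biological replicate 3. Without a second library per group, no difference between GFP and Cre cells could be set against a spread between replicates, and none was tested. The number of reads behind each list was unknown, and a mark in bulk cells cannot be split into the share of cells or alleles that carry it and the amount on each. The deletion was not checked here, since the peak lists do not measure it. Whether both conditions came from the same embryos was not given in the sources used here. Ranges in brackets after a share are exact (Clopper-Pearson) 95% binomial intervals. They account for counting error alone and take each peak as a separate draw, although peaks close together may not be.

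Active marks were concentrated in the last part of the array. The last 210 kb, from 37.8 Mb on, made up 22.6% of its length and held 28 of 36 GFP and 28 of 37 Cre peaks of H3K4me3, and 26 of the 29 H3Ac peaks in each condition. They held 84.7% of the bases covered by H3K4me3 in GFP cells and 85.4% in Cre cells, and 93.4% and 93.7% of those covered by H3Ac. The repressive marks were not gathered there in the same way. The last 210 kb held 1 of 7 GFP and 1 of 6 Cre H3K27me3 peaks, with 32.4% and 35.5% of the bases covered by that mark, because the single peak there was the widest. They held 2 of 17 GFP H3K9me3 peaks with 9.53% of the covered bases, and 4 of 10 Cre peaks with 39.0%. This division at the edge of a 30 kb window was chosen after the values were seen. The gamma genes come last among the protocadherins. Without gene positions, the peaks there were not divided between them and Slc25a2, Taf7 or Diaph1.

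**Figure D1:**
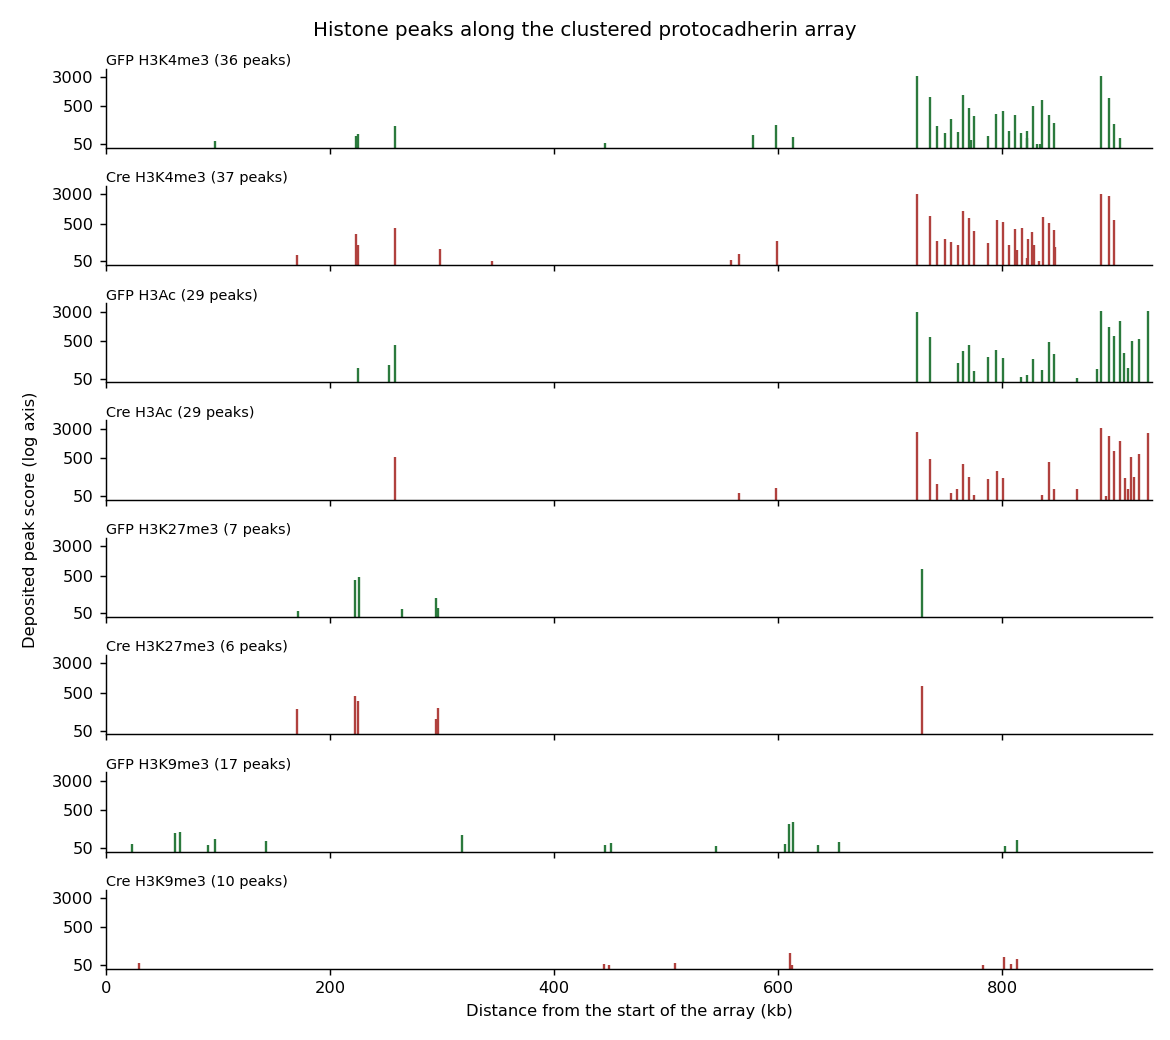
Each line stands at the midpoint of 1 peak, along the array in kb from its start, and its height is the deposited score on a log axis that begins at 40, with 1 panel per list. H3K4me3 and H3Ac peaks crowd into the last 210 kb in both conditions, whereas most GFP H3K9me3 peaks lie before it.

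Taken as a whole, the array had more H3K4me3 and H3K9me3 peaks per Mb than its flanks and the rest of the chromosome. H3K27me3 and H3Ac stood differently against the flanks and the chromosome. GFP H3K4me3 peaks numbered 38.7 per Mb in the array, 25.8 and 24.7 per Mb in the stretches of equal length before and after it, and 7.55 per Mb on the rest of the chromosome. The Cre values were 39.8, 23.7, 24.7 and 7.24 per Mb. H3K27me3 had 7 GFP peaks in the array against 60 and 55 in the flanks, and 6 Cre peaks against 48 and 41. Per Mb the array was close to the rest of the chromosome, at 7.53 against 8.93 in GFP and 6.45 against 7.44 in Cre cells, and it was the flanks that were dense in this mark. H3K9me3 peaks numbered 17 in the array, 7 before and 1 after it in GFP cells, and 10, 2 and 0 in Cre cells. Per Mb these were 18.3 in the array against 2.59 on the rest of the chromosome in GFP and 10.8 against 0.868 in Cre cells. H3Ac was less frequent in the array than in the flanks, with 29 GFP peaks against 47 and 45, and 29 Cre peaks against 37 and 50. It was more frequent than on the rest of the chromosome, at 31.2 per Mb in both conditions against 16.9 in GFP and 14.6 in Cre cells. These averages hide the division within the array. In both conditions H3Ac had 4.17 peaks per Mb in the first 720 kb, below the rest of the chromosome, and 124 in the last 210 kb. H3K4me3 had 11.1 (GFP) and 12.5 (Cre) per Mb in the first 720 kb, and 133 in the last 210 kb. The values for the first 720 kb lay below both flanks but above the rest of the chromosome, at 7.55 in GFP and 7.24 in Cre cells. The last H3Ac peak of each list crosses the end of the array and is counted on both sides.

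The peaks next to the borders were as follows. The last H3K4me3 peaks before the array ended 116939 bases away from it in GFP cells, with a score of 2556, and 116834 bases away in Cre cells, with a score of 3100, so that the alpha end began in a stretch without that mark. The first inside had scores of 60.81 in GFP and 73.17 in Cre cells. At the other border, the last H3K4me3 peak inside scored 74.55 in GFP and 611.6 in Cre cells, and the first outside 1382 and 65.56. H3Ac lay across that border in both lists, as a peak of 7666 bases with a score of 3100 in GFP and of 8230 bases with a score of 2280 in Cre cells. The nearest H3K9me3 peak outside lay 2897 bases before the array in GFP cells, with a score of 85.03, and 82307 bases before it in Cre cells, with 55.89.

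**Figure D2:**
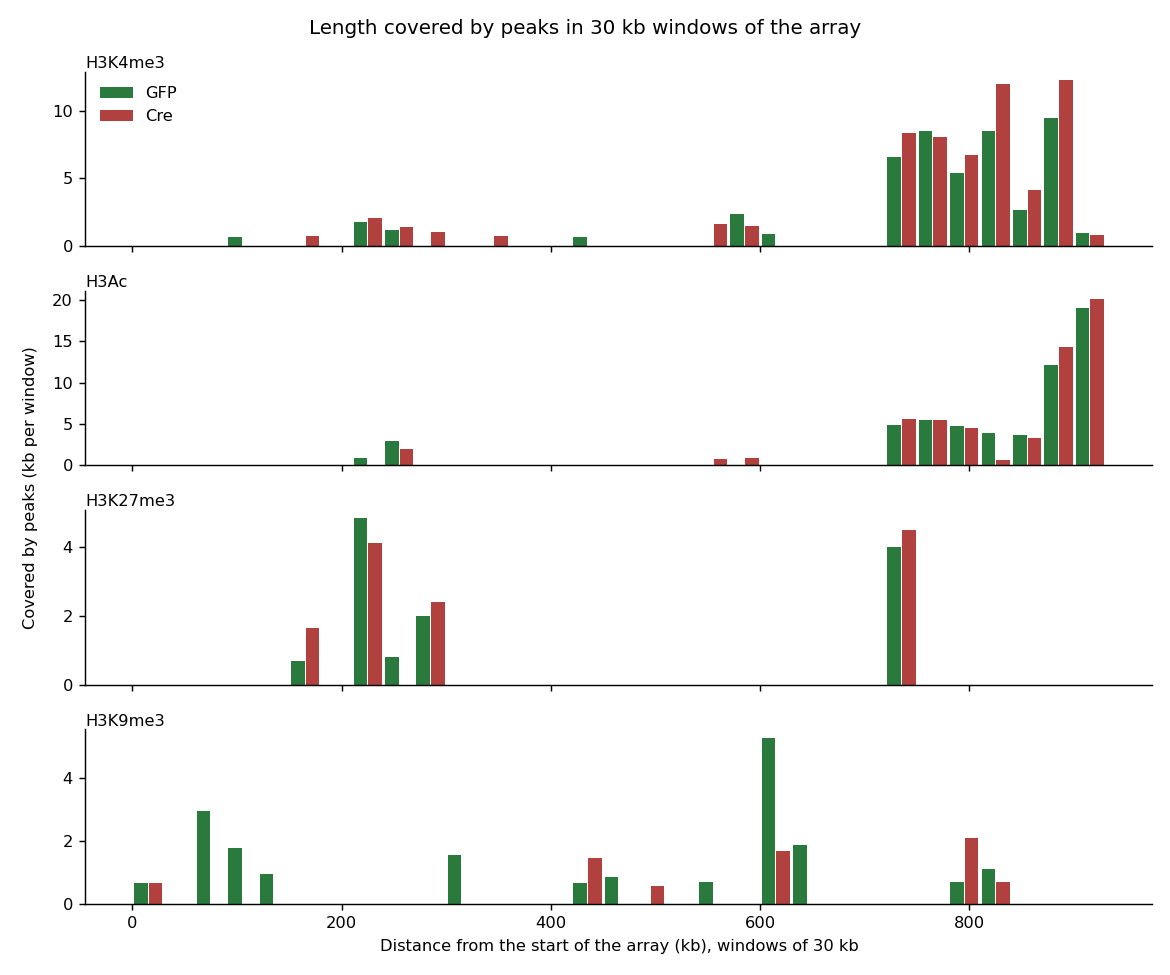
Bars give the length covered by peaks in each of 31 windows of 30 kb, in kb, against the distance from the start of the array, with GFP and Cre side by side and 1 panel per mark. The window from 900 kb on has the most H3Ac in both conditions, 19.07 kb in GFP and 20.13 kb in Cre cells, and hardly any H3K4me3.

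Scores are the authors' own and have no stated unit. They pile up at 3100, a value shared by 4367 GFP and 5743 Cre H3K4me3 peaks, so that peaks at 3100 cannot be ranked among each other. Most H3K4me3 peaks of the array were weak for their list. Their median score was 152.9 in GFP and 199.1 in Cre cells, where the whole lists had medians of 564.7 and 886.9, and 6 of 36 and 4 of 37 lay above the median of their list. The H3Ac peaks were closer to the middle of their lists, with medians of 246.9 against 224.1 in GFP and 157.5 against 226.7 in Cre cells.

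In the first 720 kb, H3K4me3 was patchy and sparser than in the flanks, with 8 peaks in GFP and 9 in Cre cells. Of these, 4 in each list had a counterpart, 50% (15.7 to 84.3) in GFP and 44.4% (13.7 to 78.8) in Cre cells. The whole lists had 89.3% and 87.4%, above both intervals, but this comparison was not matched for score. All H3K4me3 peaks of this stretch scored below the median of their list. In the whole lists, 58.3% of GFP and 42.3% of Cre peaks with a score under 100 had a counterpart. The highest-scoring Cre peak was at 257.2 kb from the start of the array. It ran from 37337217 to 37338601 with a score of 382.7, and its GFP counterpart, from 37337238 to 37338448, scored 151.5. The place was also acetylated in both libraries, with H3Ac scores of 382.5 and 523, and had no repressive mark. The highest-scoring GFP peak was at 597.6 kb, from 37677613 to 37679065 with a score of 162.8, and its Cre counterpart, from 37677685 to 37679159, scored 176.5. H3Ac was found there in the Cre list alone, with a score of 83.25. Between these places lay the longest stretches without a peak. No list had a peak from 37425044 to 37523553, which is 98.51 kb, and none had H3K4me3 or H3Ac from 37525872 to 37637324, which is 111.5 kb.

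Among these regions, H3K4me3 and H3K27me3 met in both conditions at 1 place, 220.4 kb from the start. The GFP H3K27me3 peaks from 37300417 to 37302939 and from 37304051 to 37306365 scored 378.3 and 444.4, and their Cre counterparts, from 37300396 to 37302975 and from 37304033 to 37305574, scored 413.8 and 294.2. A pair of H3K4me3 peaks lay at their facing ends in each list, with scores of 83.37 and 92.69 in GFP cells and of 263.8 and 133.2 in Cre cells. The second of them overlapped an H3Ac peak with a score of 97.46 in the GFP list alone. This arrangement, a promoter mark together with the Polycomb mark, is known as bivalent chromatin, although overlap in bulk cells does not show both marks on the same allele. Cre cells had a further overlap at 169.6 kb, where an H3K4me3 peak from 37249627 to 37250330 with a score of 73.17 met an H3K27me3 peak from 37249869 to 37251512 with a score of 187.2. The GFP H3K27me3 peak there, from 37250674 to 37251357, scored 57.46, and no GFP H3K4me3 peak lay within 51087 bases of it. In all, 2 of 36 GFP H3K4me3 peaks of the array, 5.56% (0.680 to 18.7), and 3 of 37 Cre peaks, 8.11% (1.70 to 21.9), overlapped H3K27me3, where the whole lists had 12.3% and 13.1%. From the other side, 2 of 7 GFP and 3 of 6 Cre H3K27me3 peaks overlapped H3K4me3, against 8.21% and 8.61%, with exact intervals of 3.67 to 71% and 11.8 to 88.2%.

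The remaining H3K27me3 peaks of the array stood outside H3K4me3. At 294.1 kb, GFP peaks from 37374093 to 37375353 and from 37376248 to 37376970 scored 130 and 68.37, and Cre peaks from 37374179 to 37375232 and from 37375556 to 37376898 scored 103.6 and 193.9. A weak GFP peak from 37343464 to 37344272 scored 63.78 and had no Cre counterpart. The highest and widest H3K27me3 peak of the array was a single domain in the last 210 kb, from 37805969 to 37809962 in GFP cells, 3994 bases with a score of 764.4, and from 37805938 to 37810427 in Cre cells, 4490 bases with a score of 746.1. By score it stood at percentile 91.3 of the GFP and 89.8 of the Cre list.

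That domain lay beside the first strong promoter-like region of the last 210 kb without touching it. The neighbouring H3K4me3 peaks ran from 37802243 to 37804866 in GFP and from 37801934 to 37804919 in Cre cells, both with a score of 3100, and ended 1102 and 1018 bases before H3K27me3 began. H3Ac covered the same place, with scores of 2983 (GFP) and 2428 (Cre), from 37802308 to 37804803 and from 37802126 to 37804806. None of the 28 H3K4me3 peaks of the last 210 kb overlapped H3K27me3 in either condition, which allows a share of up to 12.3%. The whole lists had 12.3% in GFP and 13.1% in Cre cells, both close to that limit.

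Beyond it followed a train of closely spaced H3K4me3 peaks. In the last 210 kb the midpoints of neighbouring H3K4me3 peaks were a median of 5.23 kb apart in GFP cells (quartiles 4.44 and 6.14 kb) and 5.04 kb in Cre cells (4.13 and 5.97 kb). In the first 720 kb the medians were 33.5 and 36.8 kb, and over the whole lists 27.4 and 31.5 kb. The widest gap in the train was 41.9 kb between midpoints in GFP and 41.1 kb in Cre cells, just before the widest H3K4me3 peak. H3Ac peaks were spaced similarly, with medians of 5.79 and 5.28 kb in the last 210 kb and 10.9 and 12.7 kb over the whole lists.

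The heights within the train varied widely in each list. Scores of both lists are given side by side here and elsewhere, and a difference between them is not read as a change. Peaks high for the train, as they lie in GFP cells, included the 1 from 37814633 to 37816306, with scores of 874.7 in GFP and 805.8 in Cre cells. The peak from 37844323 to 37846214 scored 981.9 and 1112, and the peak from 37914960 to 37916489 scored 751.9 and 751.1. Within the whole lists they were middling, at score percentiles 57.3, 59.2 and 54.7 in GFP and 48.6, 53.9 and 47.6 in Cre cells. Among the weak ones, the peak from 37839552 to 37840639 scored 104.4 and 132.4, and the peak from 37901373 to 37901973 scored 71.23 and 60.92.

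**Figure D3:**
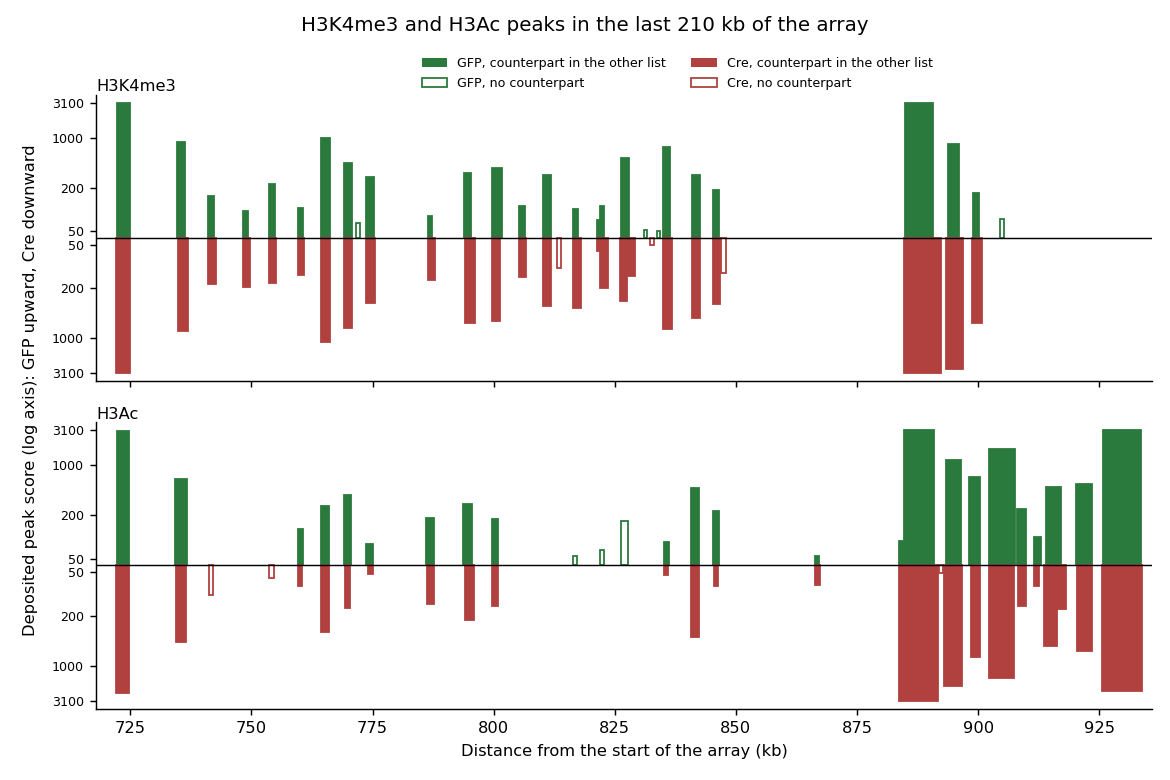
Each box is 1 peak in the last 210 kb, drawn to scale along the array in kb, with GFP scores upward and Cre scores downward on log axes that begin at 40; open boxes have no counterpart in the other list. Most H3K4me3 boxes face a box of the other condition, and the open H3Ac boxes of GFP cells stand between 816 and 828 kb.

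Near the far end of the train lay the widest H3K4me3 peak of the array in each condition. An H3K4me3 peak of 5930 bases ran from 37964848 to 37970777 in GFP cells, and 1 of 7527 bases from 37964725 to 37972251 in Cre cells, both with a score of 3100 and wider than 99.24% and 99.64% of their lists. H3Ac covered most or all of it, from 37964663 to 37970959 (6297 bases) in GFP and from 37963659 to 37971650 (7992 bases) in Cre cells, both with a score of 3100. The next H3K4me3 peak, from 37973690 to 37976111, scored 832.7 in GFP cells, and its Cre counterpart, from 37973388 to 37976828, scored 2705 and ranked next in that list after the 2 peaks at 3100. In GFP cells the peak with a score of 981.9 named above held that place. The H3Ac peaks at this site scored 1174 in GFP and 1929 in Cre cells.

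Past these promoter-like regions, H3Ac went on to the end of the array almost without H3K4me3. The H3Ac peak from 37982345 to 37987565 scored 1694 in GFP cells, with 1470 for its Cre counterpart, and overlapped a single weak GFP H3K4me3 peak with a score of 74.55 and no Cre peak. From 37988104 onward, 5 GFP and 6 Cre H3Ac peaks followed with no H3K4me3 in either list. The last and widest of them crossed the border, as given above. In the last 30 kb window H3Ac covered 19.07 kb in GFP and 20.13 kb in Cre cells, and H3K4me3 0.962 and 0.799 kb.

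H3Ac accompanied the H3K4me3 peaks of the array less often than those of the whole lists. In GFP cells 21 of 36 H3K4me3 peaks overlapped H3Ac, 58.3% (40.8 to 74.5), against 80.1% of the whole list. In Cre cells 20 of 37 did, 54.1% (36.9 to 70.5), against 85.0%. Weak H3K4me3 peaks carried H3Ac less often in the whole lists too. With a score under 100 the shares were 3 of 13 against 41.3% in GFP and 1 of 6 against 46.6% in Cre cells, and with a score of at least 500 they were 7 of 7 against 98.6% and 11 of 11 against 98.5%. With scores from 100 to 500, 11 of 16 GFP peaks overlapped H3Ac against 72.3% of the list. In Cre cells 8 of 20 did, 40% (19.1 to 63.9), against 75.9%. Within these score ranges the list's share lay inside the array's interval in every case but the Cre peaks from 100 to 500. Seen from the other mark, 21 of 29 H3Ac peaks overlapped H3K4me3 in each condition, 72.4% (52.8 to 87.3), against 41.9% of the GFP and 51.0% of the Cre list.

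Regions with H3K4me3 and no other mark made up a larger share of all marked regions in the array than over the whole series. When overlapping peaks of the 4 marks were joined within a condition, 11 of the 63 GFP regions in the array carried H3K4me3 alone, 17.5% (9.05 to 29.1), against 1.93% over the whole series. In Cre cells it was 13 of 56, 23.2% (13 to 36.4), against 1.70%. These shares were not matched for score. The peaks of these regions all scored below the median of their H3K4me3 list, and weak peaks lacked H3Ac more often in the whole lists too. H3K4me3 with H3Ac and nothing else made up 20 of 63 and 19 of 56 regions, against 18.7% and 21.9%. H3Ac alone made up 8 of 63 and 8 of 56, against 29.9% and 26.0%. H3K27me3 alone made up 5 of 63 and 3 of 56, against 34.9% and 41.5%. H3K9me3 alone made up 14 of 63 and 8 of 56, against 10.4% and 4.29%. All these are shares of the joined regions of any mark. The low shares of H3K27me3 alone and H3Ac alone in the array therefore raise the shares of the other kinds.

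The next question was how far the GFP and Cre lists matched. Of the GFP H3K4me3 peaks in the array, 28 of 36 overlapped a Cre H3K4me3 peak by at least 1 base, 77.8% (60.8 to 89.9), against 89.3% of the whole list. Of the Cre peaks, 29 of 37 overlapped a GFP peak, 78.4% (61.8 to 90.2), against 87.4%. For H3Ac the share was 24 of 29 in each direction, 82.8% (64.2 to 94.2), against 73.4% of the GFP and 84.6% of the Cre list. For H3K27me3 it was 6 of 7 GFP peaks, 85.7% (42.1 to 99.6), against 69.5%, and 6 of 6 Cre peaks, 100% (54.1 to 100), against 66.4%. For H3K9me3 it was 3 of 17 GFP peaks, 17.6% (3.80 to 43.4), against 19.0%, and 3 of 10 Cre peaks, 30% (6.67 to 65.2), against 60.1%. Each of the 8 whole-list shares lay inside the interval for the array. For the array taken as a whole, these numbers cannot show a difference in matching from the rest of the lists. For H3K4me3 the whole-list shares lay above the intervals of the first 720 kb, as given above, without matching for score. In the last 210 kb, 24 of 28 GFP peaks, 85.7% (67.3 to 96.0), and 25 of 28 Cre peaks, 89.3% (71.8 to 97.7), had a counterpart. That division was chosen after the values were seen, and the difference was not tested.

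**Figure D4:**
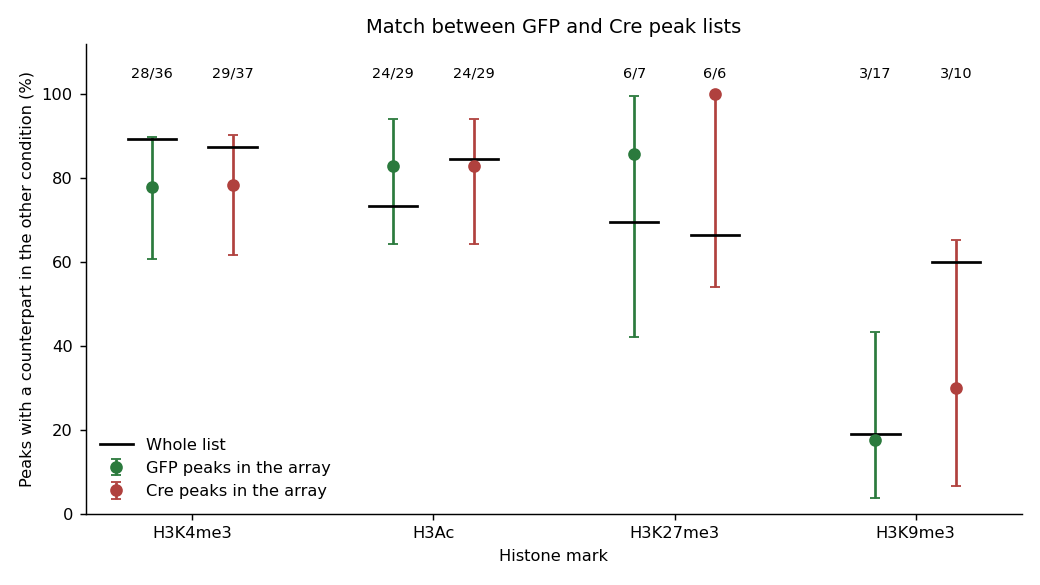
Points give the share of the array's peaks, in percent, that overlap a peak of the other condition, with exact 95% binomial intervals; horizontal bars give the same share over the whole list, and the counts stand above. Every whole-list bar lies within the interval of its point, and H3K9me3 has the lowest points.

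The unmatched H3K4me3 peaks were among the weaker ones, with scores from 50.09 to 88.42 in GFP and from 50.75 to 121.5 in Cre cells. All 23 GFP peaks of the array with a score of at least 100 had a Cre counterpart, against 96.4% of such peaks in the list, and 5 of the 13 below 100 had 1, against 58.3%. Of the Cre peaks, 28 of 31 with a score of at least 100 had a GFP counterpart, against 94.7%, and 1 of 6 below 100, against 42.3%. In the other marks, the peaks with a score of at least 100 that had a counterpart were 19 of 21 GFP and 18 of 19 Cre H3Ac peaks, against 85.8% and 94.1% of the lists. For H3K27me3 they were 4 of 4 GFP and 6 of 6 Cre peaks, against 84.9% and 80.7%, and for H3K9me3 2 of 5 and 1 of 1, against 37.5% and 81.2%. The highest-scoring GFP peaks without a counterpart had scores of 88.42 (37656613 to 37657512), 76.87 (37692923 to 37693826) and 74.55 (37984535 to 37985356). The highest Cre ones had 121.5 (37926837 to 37927859), 106.3 (37377311 to 37378313) and 103.5 (37893015 to 37893899). Of these, the peak with a score of 121.5 lay 335 bases from the nearest GFP peak. Some of the unmatched GFP peaks coincided with H3K9me3. Those starting at 37176871, 37525224 and 37692923, scored 60.81, 54.5 and 76.87, each met a GFP H3K9me3 peak, scored 87.61, 58.97 and 237.8. They lacked H3Ac in both lists. That is 3 of 36 GFP peaks, 8.33% (1.75 to 22.5), against 4.65% of the list.

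Cre H3K4me3 peaks of the array were wider than their GFP counterparts in most regions. Among the 27 regions with 1 H3K4me3 peak in each list the Cre peak was wider in 23, 85.2% (66.3 to 95.8), against 69.4% over the whole lists. The median ratio of Cre to GFP width was 1.24, with a range from 0.847 to 1.95, against 1.07 over the whole lists. At 821.99 kb, for example, the GFP peak spanned 807 and the Cre peak 1570 bases, and at 898.9 kb 1258 and 2110 bases. The share over the whole lists lies inside the interval for the array. For H3Ac the Cre peak was wider in 9 of 21 regions, 42.9% (21.8 to 66.0), against 42.1%, with a median ratio of 0.966. For H3K27me3 it was 4 of 6 against 52.6%, and for H3K9me3 0 of 3 against 15.4%, which allows a share of up to 70.8%. H3K4me3 covered 49.62 kb of the array in GFP and 61.19 kb in Cre cells, a ratio of 1.23 against 1.08 over the whole lists. H3Ac covered 57.74 and 57.82 kb, about equal lengths, where the ratio over the whole lists was 0.847.

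**Figure D5:**
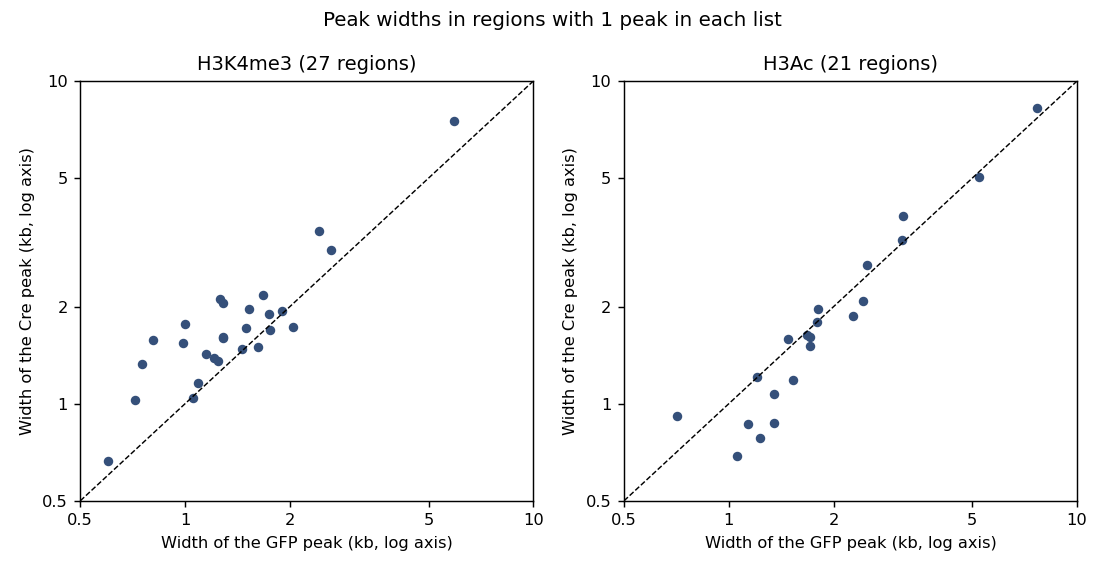
Each point is a region of the array with exactly 1 peak in each list, with the GFP width on the horizontal and the Cre width on the vertical log axis, both in kb, and the dashed line marks equal width. Most of the 27 H3K4me3 points lie above the line, and the 21 H3Ac points lie on both sides of it.

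H3Ac did not always follow H3K4me3 between the conditions. Of the 28 array regions with H3K4me3 in both lists, 16 had H3Ac in both, 57.1% (37.2 to 75.5), against 86.3% of the 19332 such regions over the whole series. H3Ac was in the GFP list alone at 4 regions, against 1.36%, and in the Cre list alone at 3, against 3.82%. The remaining 5 had none, against 8.48%. These shares were not matched for score. Most H3K4me3 peaks of the array were weak for their list, and weak ones carried H3Ac less often in the whole lists too. Of the 4 with GFP acetylation alone, 3 lay close together in the train, with 1 weak H3K4me3 region without H3Ac between them. They ran from 37896349 to 37898115, from 37901991 to 37903561 and from 37906168 to 37909253. Their GFP H3Ac peaks had scores of 54.7, 64.7 and 169.3. Cre H3K4me3 was present at all 3, with scores of 378.5, 199.1 and 305.7, the last with a second peak of 136.5. The GFP H3K4me3 peaks there scored 100.1, 112.4 and 520.3. In the 30 kb window from 810 kb on, which holds them, H3Ac covered 3.938 kb in GFP and 0.689 kb in Cre cells, whereas H3K4me3 covered 8.498 and 11.94 kb. In the reverse direction, the regions from 37821025 to 37822693 and from 37833602 to 37835039 had H3Ac in the Cre list alone, with scores of 104.8 and 60.46. Of these 5 H3Ac peaks, 3 scored under 100.

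The highest H3Ac peaks without a counterpart were few and weak. In GFP cells they were the peak with a score of 169.3 just named, from 37906308 to 37907732, a peak from 37331473 to 37332571 that scored 116.7 and overlapped no other mark, and the peak from 37303973 to 37304876 with a score of 97.46 at the bivalent place. In Cre cells they were peaks from 37821217 to 37822069 with a score of 104.8, from 37677879 to 37678769 with 83.25 and from 37644519 to 37645327 with 61.69. The last lay on an H3K4me3 peak of Cre cells, scored 77.17, that was not in the GFP list either.

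H3K9me3 was scattered mainly over the first 720 kb in GFP cells, and had the lowest shares of matched peaks of the 4 marks. GFP peaks covered 19.16 kb and Cre peaks 7.191 kb, and 1.9 kb was covered in both, 7.77% of the 24.45 kb covered in either. Over the whole lists that share was 18.6%. The ratio of covered length, 0.375, was close to that of the whole lists, 0.346. The strongest GFP peaks stood side by side, from 37692085 to 37694532 with a score of 237.8 and from 37688189 to 37690291 with a score of 212, and both had a Cre counterpart. Those counterparts, from 37692167 to 37692771 and from 37689473 to 37690563, scored 51.5 and 107.5, the latter being the highest Cre H3K9me3 peak of the array. The next GFP peak by score, from 37144838 to 37146399 with 131.6, had none, like its neighbour from 37141114 to 37142509 with 121.7 and the peak from 37397136 to 37398696 with 106.2.

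The other 8 Cre H3K9me3 peaks were all low. They began at 37108628, 37523554, 37528813, 37587578, 37862601, 37880759, 37887399 and 37892725, with scores of 55.89, 53.12, 50, 56, 50.55, 80.94, 52.46 and 71.96 in that order. The last of them had a GFP counterpart, from 37892942 to 37894062, with a score of 81.63. The peaks at 37523554, 37528813 and 37880759 had none, but lay 842, 732 and 604 bases from a GFP H3K9me3 peak. Counting peaks within 1000 bases as counterparts, an alternative chosen after the data were seen, 6 of 10 Cre and 6 of 17 GFP peaks were matched, 60% and 35.3%. In the train of H3K4me3 peaks, H3K9me3 was found at 37880759 and 37892725 under a Cre H3K4me3 peak, with H3K4me3 scores of 567 and 103.5. The first of these sites also carried H3Ac in both lists, with scores of 177.7 in GFP and 148 in Cre cells. Cre H3K4me3 peaks overlapped H3K9me3 in 2 of 37 cases, 5.41% (0.661 to 18.2), against 2.45% of the list. Among the H3K9me3 peaks themselves, 3 of 17 GFP and 2 of 10 Cre peaks met H3K4me3, against 9.64% and 13.8%.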

How the data were processed

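The members and comparisons were chosen with earlier results of these data known. The 8 lists of histone peaks, 1 per library, are the authors' deposited files, without header, with chromosome, start, end, peak name and a score per peak. The submitters' processing notes name MACS 1.4.1, BWA, SAMtools 0.1.18, bedtools 2.16.2 and build NCBIM37, without saying which tool made which file. The sources used here do not say which input served as control, how duplicates were handled or which thresholds applied. The GFP histone input is labelled replicate 1, unlike the immunoprecipitated libraries. Peak names begin with MACS. The deposited score has no stated unit or scaling. Peaks were ranked and filtered by it within each list, and the minimum of 100 was applied to each list separately. The other 10 samples of the series (RNA, Rb and input libraries) were not analysed here.

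Positions are counted from 1. A counterpart is a peak of the same mark in the other condition that overlaps by at least 1 base. Percentages for whole lists used the same overlap. Peaks named in the text are the 3 highest-scoring and the widest of each list in the array, the 3 highest without a counterpart, every peak of a list with at most 10, and those next to the borders. Others were chosen after their values were seen. Alternatives were a minimum score of 100, merging within 1000 bases, the midpoint in the array, 50% of the peak covered, and equal numbers of top-scoring peaks. A counterpart within 1000 bases was added after the data were seen. The counting of overlaps was checked on simulated lists of known overlap. Scripts ran in Python 3.11.15 with SciPy 1.17.1 for intervals, NumPy 2.4.6 and pandas 2.3.3 for overlaps, and matplotlib 3.10.9 for plots.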

Additional observations from a re-analysis of the deposited data

How the results depend on the processing

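Of 104 values recomputed under an alternative, 86 stayed within 1.5 times the reported count or length, or within the interval of the reported share. The other 18 were as follows. With a score of at least 100, the array held 23 GFP H3K4me3, 19 Cre H3Ac, 4 GFP H3K27me3, 5 GFP H3K9me3 and 1 Cre H3K9me3 peaks, and H3K9me3 covered 9.07 kb in GFP and 1.091 kb in Cre cells. The share with a counterpart was then 100% for GFP H3K4me3 (23 of 23), GFP H3K27me3 (4 of 4) and Cre H3K9me3 (1 of 1), and 94.7% for Cre H3Ac. Other shares fell but stayed inside their intervals, with the minimum applied to both lists. Cre H3K4me3 went from 78.4% to 77.4% and GFP H3Ac from 82.8% to 81%. Cre H3K27me3 went from 100% to 66.7% (4 of 6), and to the same value with 50% of the peak covered. Intervals of so few peaks are wide, so staying inside them is a weak criterion. GFP H3K4me3 peaks overlapped H3K27me3 and H3K9me3 in 0% of cases, as did Cre H3K4me3 peaks with H3K9me3. In each of these lost overlaps a peak scored under 100. Among them were the GFP H3K4me3 peaks at the bivalent place, scored 83.37 and 92.69. With equal numbers of top-scoring peaks, 5 GFP H3K9me3 peaks covering 9.07 kb remained. With 50% of the peak covered, 0% of GFP H3K9me3 peaks had a counterpart, and 0% of Cre H3K4me3 peaks overlapped H3K9me3. Merging and the midpoint rule moved none of the values recomputed under them by that measure. With counterparts within 1000 bases, the H3K9me3 shares rose from 17.6% to 35.3% in GFP and from 30% to 60% in Cre cells, which stayed inside their wide intervals. No paired analysis was possible because each mark has 1 library per condition. Depth was unknown, so a peak missing from a list is not shown to be absent.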
